A study of Mus musculus with 36 samples.

Results

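The genes of oxidative phosphorylation were followed through the livers of male mice on 36 arrays. They were taken by symbol from the Agilent array: names that start with Nduf, Sdha to Sdhd, Uqcr, Cox4 to Cox8 and Atp5, each gene read by its brightest probe over 36 arrays. The array held 92 such genes among 37061, and 91 of them were among the 24093 genes bright enough to be tested. Cox8c, a testis isoform, was not well above background on any array, with levels between -7.93 and -6.50. The rule for membership uses symbols and brightness, not a difference between groups.

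Oxidative phosphorylation takes electrons from NADH and from succinate and passes them along complexes I to IV of the inner mitochondrial membrane to oxygen. The proton gradient built on the way drives ATP synthase, complex V. Liver relies on it to burn fatty acids during a fast and to pay for gluconeogenesis. Most subunits are encoded in the nucleus and are measured here, while the catalytic heart of several complexes also needs a few subunits encoded in mitochondrial DNA.

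Each of the 6 groups held 6 arrays from mice on a C57Bl/6J background. Where nothing says that arrays came from separate animals, p-values measure the spread between these samples. CTRL are the control mice, and AAKO mice lack adipose triglyceride lipase (ATGL, the enzyme that starts the breakdown of stored fat, encoded by Pnpla2) in white adipose tissue. The age of the mice and the driver of the deletion are not given in the sources used here. Each genotype was studied fed, after a 24 h fast, and fed with a single gavage of CL316243, a drug that acts on adrenergic receptors of adipocytes (the beta 3 type) and starts fat breakdown there. The dose was 3 mg/kg in 0.5% carboxymethyl cellulose at Zeitgeber time 10, and every mouse was killed at Zeitgeber time 16. The fed groups belong to experiment 2 and the other 4 groups to experiment 1, so a comparison with the fed groups is also a comparison of experiments, and the effects cannot be told apart. The labels state a time of gavage for mice on CL316243 and for no others, so an effect of gavage or vehicle cannot be told apart from that of the agonist either.

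A level is the log2 signal of a probe over the 75th percentile of its array, and levels of different probes are not set against each other. A difference is a difference of such levels, with its standard error from the fit, and a gene is called at an adjusted p under 0.05 (limma, two-sided, Benjamini-Hochberg over all 24093 genes). On each array 33124 to 37200 probes passed the scanner software's flag for a signal well above background. The 6 hepatocyte markers were well above background in every group, with summed levels between 11.29 and 11.79. A summed level is the log2 of the markers' signals added on the linear scale, so the brightest markers weigh most. In bulk liver, fewer cells of a type and less RNA per cell cannot be told apart. Array 6 of the AAKO CL316243 group carried skeletal muscle transcripts, and results that rest on it are given with and without it. Probes of a gene did not always move together: of 35 genes with several bright probes, 22 had the same sign in all of them for the genotype difference in fasted mice.

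Promoter sequence was available for 75 of the 92 genes, as 81 windows of 300 bases (250 before to 50 after the start) from RefSeq on GRCm38.p6. The windows had a median GC content of 57.7%, against 52.67% over the 32851 windows of all genes. 4 short motifs of factors known to act on nuclear genes of mitochondria were counted on both strands. The GABPA core CCGGAAG lay in 21.0% of the windows and in 8.86% of all windows. The NRF1 core GCGCATGCG lay in 12.3% and 1.75%, and the YY1 core AAGATGGCG in 11.1% and 1.40%. For TCAAGGTCA, an extended site of ERRA, the shares were 2.47% and 0.423%. A match describes the letters of a window and does not show binding, and GC content differs between the sets. The stretches from 100 bases before to 30 after the start are printed below for 5 genes whose data are described later: Ndufb7, Uqcr11 and Atp5k, which were lower in fasted AAKO mice, Cox6a1, which was not called, and Cox7a2, which was higher. Capitals mark the GABPA and NRF1 cores on either strand.
Ndufb7: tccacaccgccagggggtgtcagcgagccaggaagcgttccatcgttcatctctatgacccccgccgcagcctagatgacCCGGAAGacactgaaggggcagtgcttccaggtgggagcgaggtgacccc
Uqcr11: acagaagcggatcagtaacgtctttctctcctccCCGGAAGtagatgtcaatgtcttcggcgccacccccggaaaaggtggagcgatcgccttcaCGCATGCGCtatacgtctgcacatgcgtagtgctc
Atp5k: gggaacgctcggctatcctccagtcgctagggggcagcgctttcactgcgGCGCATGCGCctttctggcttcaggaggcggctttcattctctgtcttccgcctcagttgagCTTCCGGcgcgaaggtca
Cox6a1: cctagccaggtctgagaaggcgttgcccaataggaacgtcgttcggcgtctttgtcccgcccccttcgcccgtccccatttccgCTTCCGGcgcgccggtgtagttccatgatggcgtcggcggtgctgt
Cox7a2: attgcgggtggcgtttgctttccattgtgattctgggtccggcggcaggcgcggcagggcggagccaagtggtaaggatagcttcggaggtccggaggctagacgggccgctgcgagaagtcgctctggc
They lie at chr8:83566658-83566787 on the plus strand for Ndufb7, and on the minus strand at chr10:80406792-80406921 for Uqcr11, chr5:108434370-108434499 for Atp5k, chr5:115348929-115349058 for Cox6a1 and chr9:79759824-79759953 for Cox7a2. The NRF1 core in the Atp5k stretch is part of a palindrome, so both strands match there. The Cox7a2 stretch held none of the 4 motifs.

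The motifs were also counted by the call of the genotype difference in fasted mice. Of 41 genes with a promoter window that were lower in AAKO, 10 held the GABPA core, 4 the NRF1 core and 6 the YY1 core. Of 31 genes that were not called, 7, 6 and 1 did. Of 3 that were higher, 1 held the YY1 core and none the GABPA or NRF1 core. These are counts with no test.

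Averaged over the 91 genes, the fasted AAKO livers stood lowest. The mean deviation of the genes from their overall means was between -0.40 and -0.14 on the 6 AAKO fasted arrays. It was between -0.15 and 0.06 on the CTRL fasted arrays. The fed arrays of both genotypes lay above 0, from 0.06 to 0.25. CTRL arrays given CL316243 lay between -0.15 and 0.08, and AAKO arrays given CL316243 between 0.00 and 0.20. The highest was array 6, and the others lay between 0.00 and 0.09. On array 6 the mean was 1.28 over complex IV and 0.06 over the assembly factors. Over complexes I, II, III and V it was -0.03, -0.13, -0.04 and -0.02. The ranges of the fasted genotypes overlapped at their edges: CTRL fasted arrays 2 and 5 lay at -0.15, and the other 4 between -0.02 and 0.06.

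**Figure D1:**
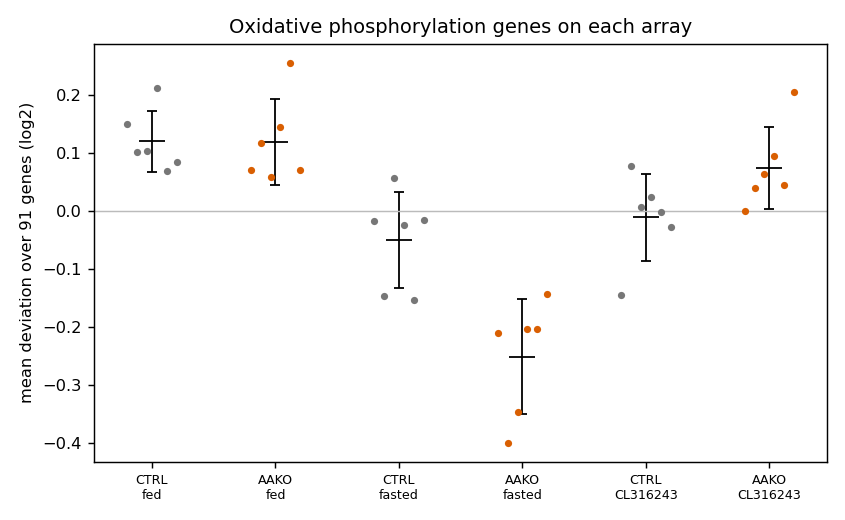
Mean deviation (log2) of the 91 oxidative phosphorylation genes on each array from each gene's mean over 36 arrays, by group. Points are arrays, the horizontal line is the group mean and bars are 1 SD (n = 6). The AAKO fasted arrays lie between -0.40 and -0.14. The highest AAKO CL316243 point is array 6, which carried muscle transcripts and had a complex IV mean of 1.28.

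The first comparison asks how the fasted liver differs when white adipose tissue lacks ATGL. The deleted gene is targeted in fat, so its level in liver is no check of the labels. Many subunits of complexes I and V were lower in AAKO mice, while 1 of the 10 common subunits of complex IV was called. Of 91 genes, 48 were lower and 4 higher in AAKO, where 28.1% of all genes tested were called lower and 21.3% higher. The median difference was -0.17 over the members and -0.04 over all genes, and 76 of the 91 had a negative sign. In 22 genes every AAKO array lay below every CTRL array, and in 1 every AAKO array lay above. The share of all genes tested that separated in this way is not given, here or in the comparisons below. Such counts therefore describe the members only. Single differences were modest: the middle range of the genes, from the first to the third quartile, ran from -0.31 to -0.07. The 95% interval of a difference reached 0.135 to either side in the median gene. Within wash batches 1 and 2, each of which holds all groups, 36 and 26 genes were called and the medians were -0.24 and -0.11.

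**Figure D2:**
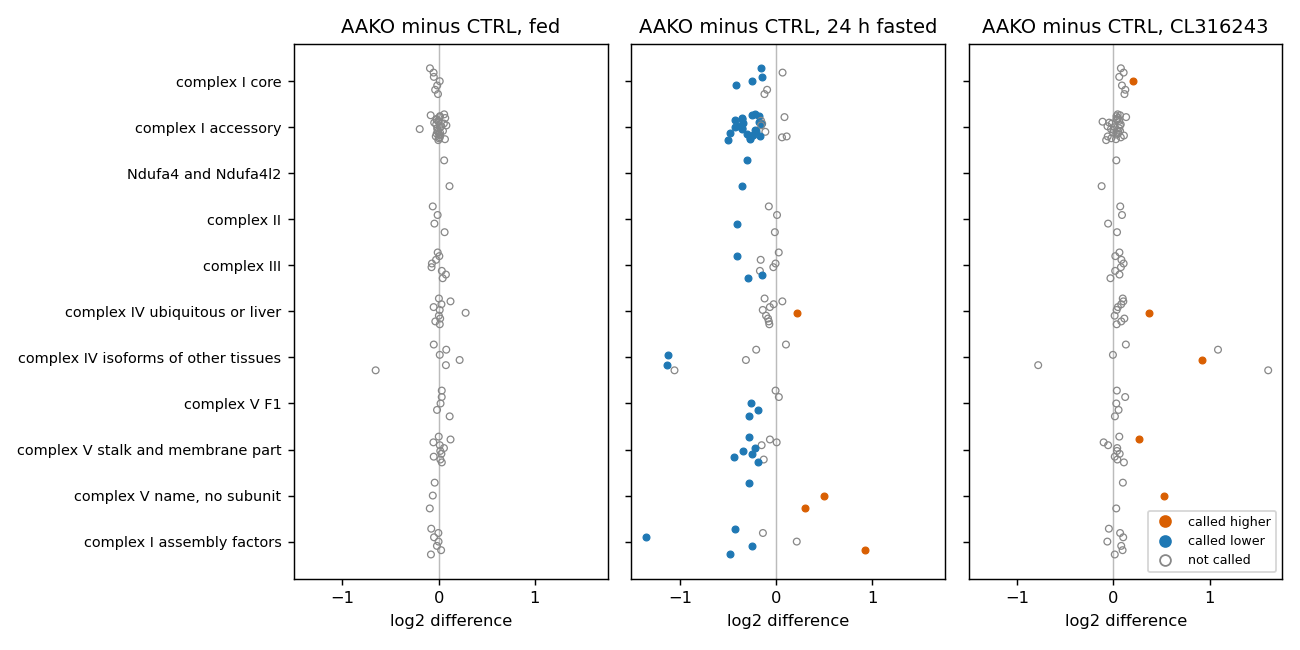
Difference AAKO minus CTRL (log2) of each gene in the fed, fasted and CL316243 groups, arranged by complex and role; each point is a gene and filled points were called (limma adjusted p under 0.05). In fasted mice 22 of 29 accessory subunits of complex I lie to the left and are called, while 1 of 10 common subunits of complex IV is called, to the right.

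Complex I, the NADH dehydrogenase that feeds electrons into the chain, had the most genes called lower, 28 of 38 with Ndufa4 and Ndufa4l2 included. It is also the largest set, and the complexes were not tested against each other. Its accessory subunits, which surround and stabilise the enzyme, were lower in 22 of 29 cases and higher in none, with a median of -0.24. Ndufb7, an accessory subunit of the membrane arm (probe on chromosome 8, 86095445 to 86095504, mm9), had levels of 5.70, 6.02 and 6.12 on the CTRL fasted arrays (lowest, median, highest) and 5.33, 5.55 and 5.62 on the AAKO fasted arrays. All AAKO fasted arrays lay below all CTRL fasted arrays, of which array 2 was lowest. The difference was -0.47 ± 0.06 (limma adjusted p = 4.98e-08), a 1.39-fold lower signal. On the fed and CL316243 arrays Ndufb7 stayed between 5.99 and 6.20 in both genotypes.

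Ndufv3, a small subunit of the NADH-oxidising module, had levels of 6.27, 6.57 and 6.65 in CTRL fasted mice and 5.77, 6.09 and 6.18 in AAKO fasted mice. Its groups did not overlap, and the difference was -0.50 ± 0.08 (limma adjusted p = 3.64e-06). The other probe for this gene gave -0.11 and was not called. Ndufa3 and Ndufb11, accessory subunits of the membrane arm, differed by -0.43 each, also without overlap. Members of the same group that did not pass the test were Ndufs4 (0.06), Ndufa12 (0.09) and Ndufc2 (0.11), which had a positive sign.

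Of the 7 core subunits, which carry the flavin, the iron-sulphur clusters and the route of the electrons, 4 were lower. Ndufs8, which holds iron-sulphur clusters near the quinone site, had levels of 5.20, 5.36 and 5.43 in CTRL fasted mice and 4.71, 4.96 and 5.08 in AAKO fasted mice. Every AAKO array lay below every CTRL array, and the difference was -0.42 ± 0.06 (limma adjusted p = 4.20e-07). The other core genes moved less. Ndufs7 differed by -0.25, Ndufs3 by -0.15 and Ndufs1, the largest subunit, by -0.16. The call for Ndufs1 was lost in 7 of 12 fits that left out 1 array (values from -0.21 to -0.12). Ndufv1, the flavoprotein that binds NADH, differed by -0.09 and Ndufv2 by -0.12, neither of them called.

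Ndufa4, named as a complex I gene but known as a subunit associated with complex IV, was lower by 0.30 on the log2 scale (-0.30 ± 0.07, limma adjusted p = 9.78e-04), with no overlap between the groups. Its relative Ndufa4l2, induced by hypoxia in other cells, had a difference of -0.35 ± 0.15 (adjusted p = 0.0483) with overlapping groups. That call was lost in 6 of 12 fits without 1 array, and the value was -0.73 within wash batch 1 and 0.02 within wash batch 2.

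Complex II, succinate dehydrogenase, also works in the citric acid cycle. Of its 4 subunits 1 was called lower, a share near the 28.1% of all genes tested that were called lower. Sdhc, a membrane anchor that binds haem and quinone (probe on chromosome 1, 173059539 to 173059598, mm9), had levels of 3.88, 4.12 and 4.21 in CTRL fasted mice and 3.56, 3.69 and 3.76 in AAKO fasted mice. No AAKO fasted array reached the lowest CTRL fasted array, and the difference was -0.40 ± 0.07 (limma adjusted p = 6.97e-06). The catalytic flavoprotein Sdha differed by -0.08, the iron-sulphur subunit Sdhb by 0.01 and the second anchor Sdhd by -0.01, and none was called. The anchor Sdhc and the catalytic subunits of one enzyme therefore had different values, a difference between genes that was not itself tested.

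Complex III, which passes electrons from ubiquinol to cytochrome c, had 3 of 8 subunits lower and none higher (median -0.15). Of all genes tested 28.1% were called lower, not far from that share, and 21.3% higher. The small subunit Uqcr11 had levels of 6.84, 7.03 and 7.11 in CTRL fasted mice and 6.34, 6.68 and 6.78 in AAKO fasted mice. The groups did not overlap (-0.41 ± 0.07, limma adjusted p = 7.89e-06). Uqcrq, which supports the cytochrome b subunit, differed by -0.29, and Uqcrh, the hinge protein, by -0.14. The core protein Uqcrc1 (-0.00) and the Rieske iron-sulphur protein Uqcrfs1 (-0.17, adjusted p = 0.0731) were not called.

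Complex IV, cytochrome c oxidase, reduces oxygen, and its subunits come as ubiquitous or liver forms and as forms of other tissues. Among 10 ubiquitous or liver forms none was lower and 1 was higher, with a median of -0.07. Cox4i1, a regulatory subunit that binds ATP, had levels of 7.48, 7.60 and 7.72 in CTRL fasted mice and 7.36, 7.47 and 7.60 in AAKO fasted mice. The groups overlapped, and the difference of -0.12 ± 0.05 missed the threshold (limma adjusted p = 0.0505). Cox6a1, whose promoter is printed above, differed by -0.02, Cox5a by 0.07 and Cox7a2l by -0.10, all uncalled.

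The exception was Cox7a2, the liver form of a small subunit of complex IV. Its levels were 6.35, 6.43 and 6.53 in CTRL fasted mice and 6.49, 6.62 and 6.90 in AAKO fasted mice. The groups overlapped at their edges (0.22 ± 0.09, limma adjusted p = 0.0496), and the call was lost in 8 of 12 fits without 1 array (values from 0.17 to 0.25). Cox7a2 was also higher in AAKO mice given CL316243, where the CTRL levels were 6.37, 6.62 and 6.92 and the AAKO levels 6.79, 7.03 and 7.09. The difference there was 0.37 ± 0.09 (adjusted p = 0.00344), with overlap. In fed mice it was 0.28, with an unadjusted p of 0.00483 and an adjusted p of 0.417. The sign was the same in all 3 conditions.

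Forms of complex IV that belong to other tissues were dim in liver, and 2 of 6 were lower in fasted AAKO mice. That share was near the 28.1% of all genes tested that were called lower. Cox6b2, known from testis (probe on chromosome 7, 4703488 to 4703547, mm9), had levels of -1.19, -0.71 and -0.41 in CTRL fasted mice. On all arrays of the other 5 groups it lay between -2.12 and -1.65. Only the CTRL fasted mice had a raised signal. The genotype difference was -1.13 ± 0.10 (limma adjusted p = 6.38e-11), a 2.18-fold lower signal in AAKO. Cox7b2, another testis form, differed by -1.13 ± 0.32 (adjusted p = 0.00408), but was well above background on 3 of 6 AAKO fasted arrays and 5 of 6 CTRL fasted arrays. Its difference was -0.15 after normexp background correction with quantile normalization and -0.38 in the authors' value table, called in both.

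Complex V, ATP synthase, has a catalytic head, F1, and a stalk with a membrane part that carries protons. In the head 3 of 5 subunits were lower (median -0.19) and in the stalk and membrane part 6 of 10 (median -0.21), with none higher. Atp5k is the e subunit that links pairs of the enzyme in the membrane. Its levels were 6.43, 6.64 and 6.72 in CTRL fasted mice and 5.94, 6.26 and 6.36 in AAKO fasted mice. All AAKO arrays lay below all CTRL arrays (-0.43 ± 0.07, limma adjusted p = 6.15e-06), and its other probe gave -0.42. Atp5j, coupling factor 6 of the stalk, had levels of 6.15, 6.23 and 6.32 against 5.67, 5.95 and 5.98, again without overlap (-0.35 ± 0.05).

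The catalytic subunits of ATP synthase did not follow. Atp5a1, the alpha subunit, had levels of 7.09, 7.37 and 7.52 in CTRL fasted mice and 7.27, 7.34 and 7.41 in AAKO fasted mice, and Atp5b, the beta subunit, 7.61, 7.78 and 7.93 against 7.71, 7.78 and 7.90. Their differences were -0.00 ± 0.06 and 0.03 ± 0.06 and were not called. The 3 genes of the c ring, Atp5g1, Atp5g2 and Atp5g3, differed by -0.06, 0.01 and -0.15, also uncalled. Of 3 genes with an Atp5 name that encode no subunit, 1 was lower, Atp5c1-ps (-0.28 ± 0.08, limma adjusted p = 0.00344), and 2 were higher. Atp5s (RefSeq Dmac2l, coupling factor B) differed by 0.50 ± 0.14 (limma adjusted p = 0.00410), and Atp5sl (RefSeq Dmac2, a factor in complex I assembly) by 0.30 ± 0.09.

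The assembly factors of complex I named Ndufaf, which build the enzyme but are not part of it, held the largest single difference of the set, that of Ndufaf3. Of 7, 4 were lower and 1 higher. Ndufaf3, which helps to build the quinone module (probe on chromosome 9, 108468692 to 108468899, mm9), had levels of 0.23, 0.99 and 1.20 in CTRL fasted mice and -0.72, -0.52 and -0.13 in AAKO fasted mice. CTRL array 2 was the low one and still lay above every AAKO array. The difference was -1.36 ± 0.11 (limma adjusted p = 9.23e-12), or 2.56-fold. In the fed and CL316243 groups of both genotypes Ndufaf3 lay between 0.58 and 1.26.

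Ndufaf1, which works on the membrane arm, had levels of 2.25, 2.56 and 2.69 in CTRL fasted mice and 1.85, 2.13 and 2.19 in AAKO fasted mice. The groups did not overlap (-0.43 ± 0.08, limma adjusted p = 2.29e-05). Ndufaf7, a methyltransferase that modifies a core subunit, differed by -0.47 and Ndufaf5, which hydroxylates another, by -0.25, both with overlap. Ndufaf6 went the other way. Its levels were 0.81, 1.17 and 1.38 in CTRL fasted mice and 1.74, 2.11 and 2.31 in AAKO fasted mice, with every AAKO array above every CTRL array (0.93 ± 0.10, adjusted p = 1.01e-08). The AAKO fasted values lay near the range of the fed groups, 1.80 to 2.42, with the lowest at 1.74 just below it. Another probe of Ndufaf6 gave 0.90 and the last gave -0.30 (adjusted p = 0.0473).

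**Figure D3:**
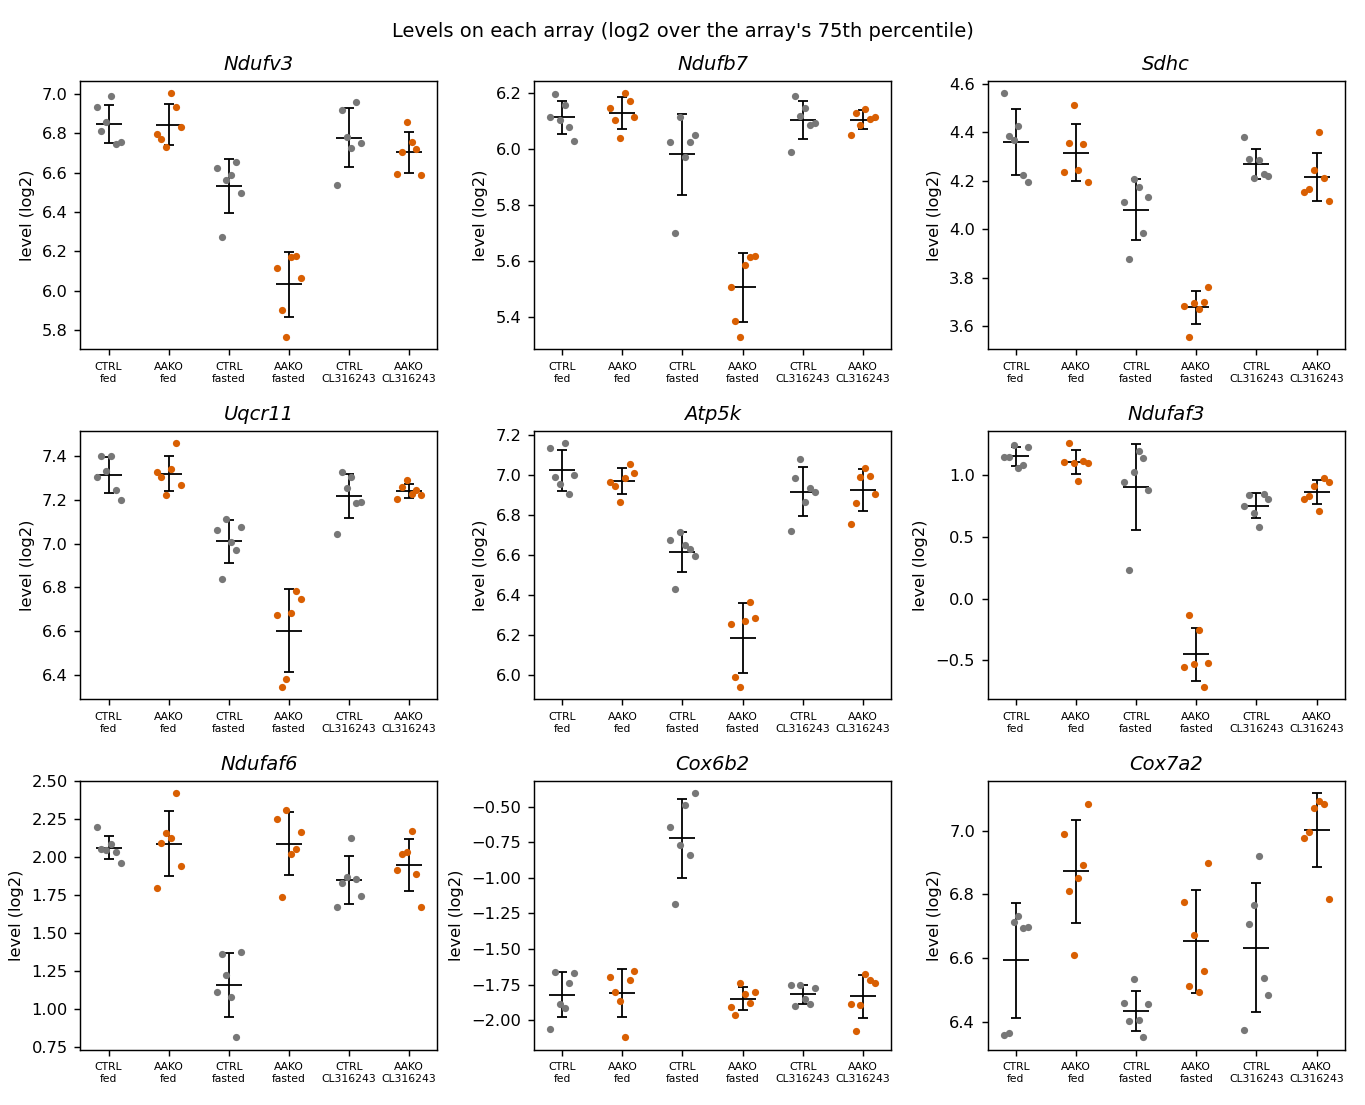
Levels (log2 signal over the 75th percentile of the array) of 9 genes on each of the 36 arrays, by group; points are arrays, lines are means and bars are 1 SD (n = 6). Ndufaf3 falls below 0 on the AAKO fasted arrays only, Ndufaf6 and Cox6b2 stand apart in the CTRL fasted group, and the vertical axes do not start at 0 and differ between panels.

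Whether the genotype difference in fasted mice differed from that in the other groups was tested as an interaction. Against CL316243 the reference is mice given the drug, so a genotype difference there enters the term as well. Against the CL316243 groups of the same experiment, the interaction was negative and called in 46 of 91 genes and positive and called in 1, where 19.7% and 12.6% of all genes tested were called. The median was -0.24 over the members and -0.09 over all genes. Against the fed groups, 35 genes were called lower and 3 higher, where 19.4% and 14.5% of all genes were, with medians of -0.19 and -0.06. An effect of the experiment that is equal in both genotypes cancels in these terms. The values of the genes described above were similar in size: for Ndufaf3 -1.46 ± 0.15 against CL316243 and -1.31 ± 0.15 against fed, for Ndufs8 -0.51 and -0.40, for Sdhc -0.35 and -0.36, and for Atp5k -0.45 and -0.38. Both terms share the fasted arrays. Within wash batches 1 and 2 the calls numbered 17 and 14 against CL316243, and 20 and 4 against fed. Against CL316243 they numbered 30 after normexp with quantile normalization, 29 after quantile normalization and 26 in the authors' value table.

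In CTRL mice fewer of these genes separated the fasted from the CL316243 group. The difference fasted minus CL316243 was lower for 17 genes and higher for 3, where 17.6% and 19.2% of all genes were called, and the medians were -0.04 over the members and 0.01 over all genes. The share of lower calls was therefore near the background, and within wash batches 1 and 2 there were 9 and 12 calls. In 6 genes the fasted arrays lay entirely below and in 3 entirely above. The largest difference downwards was that of Ndufaf5, with fasted levels of -1.18, -0.86 and -0.71 and CL316243 levels of 0.09, 0.17 and 0.23. All fasted arrays lay below all CL316243 arrays (-1.04 ± 0.08, limma adjusted p = 4.65e-11). A second probe of Ndufaf5 gave -0.19 and was not called. Ndufaf6 differed by -0.69 and Ndufs8 by -0.36. Higher in the fasted mice were Atp5s (1.43 ± 0.14), Cox6b2 (1.097 ± 0.10) and Cox7a2l (0.30 ± 0.05), each without overlap.

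In AAKO mice most of the genes were lower in the same comparison, a larger share than among all genes tested. Fasted mice were lower for 60 genes and higher for 4, where 33.8% and 26.1% of all genes were called, with medians of -0.28 and -0.08. Entirely below lay the fasted arrays in 47 genes and entirely above in 1. Accessory subunits of complex I were lower in 24 of 29 cases, the stalk and membrane part of complex V in 8 of 10 and the common subunits of complex IV in 4 of 10. Ndufs8 had levels of 4.71, 4.96 and 5.08 in fasted AAKO mice and 5.72, 5.80 and 5.85 in AAKO mice given CL316243. The gap between the groups exceeded 0.5 on the log2 scale (-0.87 ± 0.06, limma adjusted p = 6.67e-14). Atp5k differed by -0.75, Uqcr11 by -0.64, Sdhc by -0.54 and Sdha by -0.20, of which only Sdha had overlapping groups. The other probes of Sdha gave -0.30, called, and -0.21 and 0.25, not called, and the call of its main probe was lost without AAKO fasted array 2 (-0.14). Within wash batches 1 and 2 there were 47 and 44 calls. The higher genes were Atp5s (1.40), Ndufaf4 (0.37), Cox7a2l (0.18) and Atp5g2 (0.17), and the call for Atp5g2 was lost in 9 of 12 fits without 1 array.

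**Figure D4:**
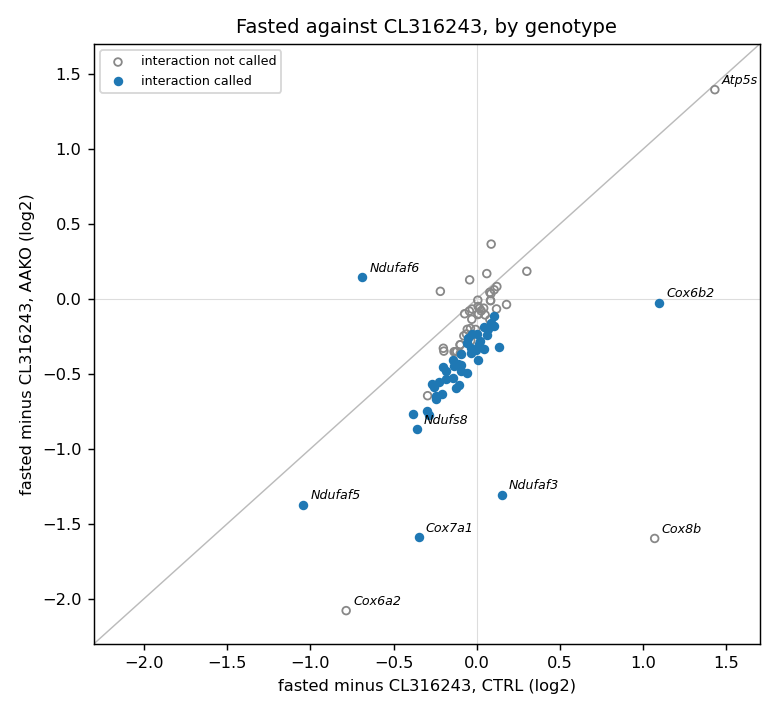
Difference fasted minus CL316243 (log2) in CTRL mice on the horizontal axis and in AAKO mice on the vertical axis, 1 point per gene; the line marks equal values and filled points had a called interaction (46 lower, 1 higher). Most points lie below the line, Ndufaf3 far below it, and Atp5s lies near it at 1.43 and 1.40; the AAKO values of Cox6a2, Cox7a1 and Cox8b contain array 6.

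Against the fed groups of the other experiment both genotypes had lower values after the fast. In CTRL mice 44 genes were lower and 3 higher, where 22.4% and 20.8% of all genes were called, with medians of -0.17 and -0.03. In 23 genes the fasted arrays lay entirely below the fed ones and in 3 entirely above, and each wash batch alone gave 23 calls. In AAKO mice 70 were lower and 2 higher, where 35.7% and 27.7% of all genes were called, with medians of -0.34 and -0.09. In 55 genes they lay entirely below and in 1 entirely above, and wash batches 1 and 2 gave 64 and 55 calls. Ndufb10, an accessory subunit of the membrane arm, differed by -0.38 in CTRL and by -0.80 in AAKO mice. Ndufs8 differed by -0.52 and -0.92, and Atp5k by -0.41 and -0.79. By their brightest probes, all accessory subunits of complex I had a negative sign in both genotypes. For Ndufa3 in CTRL mice another probe gave -0.17 and the last gave 0.82 (limma adjusted p = 4.1e-06).

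Some genes had other patterns. Ndufaf5, the hydroxylase, was lower in both genotypes after the fast (-1.16 ± 0.08 in CTRL, -1.39 ± 0.08 in AAKO), but its other probe gave -0.17 in CTRL mice and was not called. Ndufaf3 differed by -1.56 ± 0.11 in AAKO mice and by -0.25 ± 0.11 in CTRL mice (adjusted p = 0.0591). Ndufaf6 was lower in CTRL mice (-0.90 ± 0.10) and had a difference of 0.00 ± 0.10 in AAKO mice. Of its other probes in CTRL mice, 1 gave -0.87 and 1 gave 0.03. Atp5s rose in both, from levels of -3.16, -2.94 and -2.52 in fed CTRL mice to -1.61, -1.45 and -1.41 in fasted CTRL mice, and to -1.44, -0.92 and -0.67 in fasted AAKO mice. Fed and fasted arrays did not overlap for Atp5s in either genotype (1.41 ± 0.14 and 1.96 ± 0.14).

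CL316243 compared with the fed groups gave smaller values. In CTRL mice 29 genes were lower and none higher, where 12.9% and 10.4% of all genes were called, with medians of -0.14 and -0.03. Leaving out 1 array could cut the count by more than 1.5 times: the number of calls was 14 without CTRL fed array 4, 12 without CTRL fed array 1 and 13 without CTRL CL316243 array 1. In these fits 21.1%, 19.4% and 21.6% of all genes were called, larger shares than among the 91 members. Each wash batch alone gave 1 call, quantile normalization 5, and normexp with quantile normalization 8. In 15 genes the CL316243 arrays lay entirely below the fed ones. Core subunits of complex I were lower in 6 of 7 cases, among them Ndufv2 (-0.21 ± 0.05), and complex II in 3 of 4, where the gene not called was Sdhc (-0.09). For Sdha, 1 of those 3 (-0.20), the direction turned with the probe: another was called higher (0.29), and the remaining ones gave 0.05 and -0.32 and were not called. In AAKO mice 12 genes were lower and 1, Atp5s (0.57 ± 0.14), was higher, where 15.6% and 15.7% of all genes were called, with medians of -0.08 and -0.01. The share of lower calls was near the background there, and wash batches 1 and 2 gave 7 and 0 calls. Ndufaf4 was lower in both genotypes (-0.45 ± 0.12 and -0.52 ± 0.12). The interaction of genotype with CL316243 against fed was called in 0 of 91 genes, where limma called 10.9% of all genes. At an unadjusted p under 0.05 stood 2 members, Atp5s (0.59, adjusted p = 0.0534) and Ndufs7 (0.20).

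In fed mice no genotype difference was called in these genes. Limma called 0 of 91, where it called 0.0789% of all genes, and 2 stood at an unadjusted p under 0.05: Cox7a2, given above, and Ndufb3 (-0.20, adjusted p = 0.714). The medians were 0.00 over the members and over all genes, and the interval of 87 of the 91 genes lay within 0.5 on either side of 0.

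With CL316243, 5 genes were higher in AAKO than in CTRL mice and none lower, where 13.5% and 11.3% of all genes were called, with medians of 0.05 and 0.03. Wash batches 1 and 2 alone gave 0 and 1 call. Apart from Cox7a2 these were Atp5g1, a gene of the c ring, Ndufs7, a core subunit of complex I, Atp5s and Cox7a1. The Atp5g1 levels were 6.71, 6.93 and 6.99 in CTRL mice and 7.09, 7.17 and 7.24 in AAKO mice. The groups did not overlap (0.27 ± 0.07, limma adjusted p = 0.00540), another probe gave 0.23, and the last gave 0.03 and was not called. Entirely above lay the AAKO arrays in 2 genes. Ndufs7 differed by 0.21 ± 0.07 (adjusted p = 0.0206) and Atp5s by 0.53 ± 0.14 (adjusted p = 0.00575). The split of the calls depended on the scaling: 4 higher and 4 lower after quantile normalization, 4 higher and 6 lower after normexp with quantile normalization, and 2 higher and 2 lower in the authors' value table.

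The muscle forms of complex IV stood apart on 1 array. Cox6a2, the heart and muscle form of subunit 6a, was at 4.50 on AAKO CL316243 array 6 and between -4.01 and -3.61 on the other 5 arrays of its group. Cox8b was at 3.57 there, against -6.32 to -4.69, and Cox7a1 at 4.27, against 0.79 to 1.37. The same array carried the muscle genes Ckm at 1.45, against -8.19 to -6.62 on the other 35 arrays, Mb, myoglobin, at 4.30, against -8.23 to -6.64, and Acta1 at 4.88, against -7.16 to -4.42. All 6 muscle markers were highest there, and their summed level was 6.79, against a group median of -1.78. Without this array the genotype difference of Cox7a1 with CL316243 was 0.43 in place of 0.93 and was not called, and the call was also lost without any one of 5 CTRL CL316243 arrays (1, 2, 4, 5 or 6). Fasted minus CL316243 in AAKO mice was -1.59 for Cox7a1 and -2.08 for Cox6a2. Without array 6 it was -1.10 and -0.74, both called, and without AAKO fasted array 2 the value for Cox6a2 was -1.87 and was not called. The interaction of Cox7a1 against CL316243, -1.24, was -0.75 and called without array 6, but the call was lost in 12 of 24 fits without 1 array. The counts of called genes without array 6 were 63 in place of 64 for fasted against CL316243 in AAKO mice, 46 in place of 47 for the interaction and 4 in place of 5 for the genotype difference with CL316243.

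**Figure D5:**
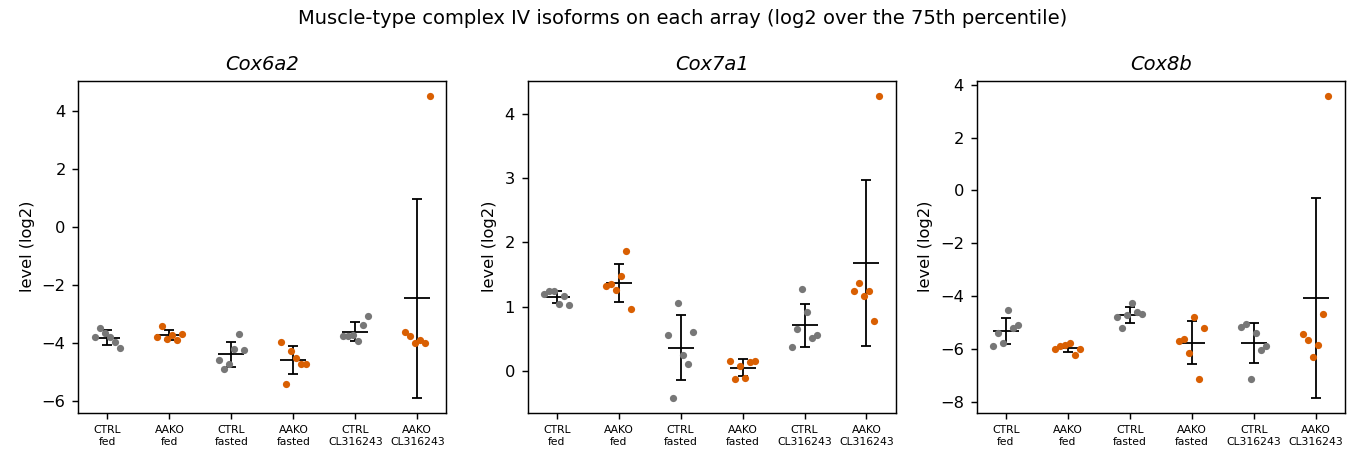
Levels (log2 signal over the 75th percentile of the array) of Cox6a2, Cox7a1 and Cox8b on each array, by group; points are arrays, lines are means and bars are 1 SD (n = 6). AAKO CL316243 array 6 lies at 4.50, 4.27 and 3.57, far above the other 5 arrays of its group.

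Other genes of the pathway were read from 6 lists, to be set against the 28.1% of all genes tested that were lower in fasted AAKO mice, the 21.3% that were higher and the median of -0.04 over all genes. The genes named from each list were chosen after their values were seen. Assembly factors of complexes II to V and further factors of complex I, 39 in number, were lower in fasted AAKO mice in 22 cases and higher in 5, with a median of -0.26. Lyrm7, a chaperone of the Rieske protein, differed by -1.15 ± 0.18, Taco1, an activator of the synthesis of a mitochondrial subunit of complex IV, by -1.07 ± 0.11, Cox19, a copper chaperone, by -0.98 ± 0.09 and Cox15, which makes haem a, by -0.78 ± 0.09. In the opposite direction went Coa5 (0.80), Cox10 (0.53), which acts just before Cox15 in haem a synthesis, and Cox11 (0.52).

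Carriers and enzymes that bring electrons in, 18 in number, were lower in 10 cases and higher in 2, with a median of -0.25. Etfa, Etfb and Etfdh carry electrons from fatty acid oxidation to ubiquinone and differed by -0.55 ± 0.07, -0.75 ± 0.06 and -1.24 ± 0.09. Gpd2, the mitochondrial glycerol phosphate dehydrogenase, differed by -1.82 ± 0.22, and Coq3, a methyltransferase of ubiquinone synthesis, by -1.38 ± 0.12. Cytochrome c, Cycs, differed by -0.28 ± 0.08. The 2 higher genes, Pdss1 (0.60 ± 0.13) and Coq7 (0.25 ± 0.10), act in ubiquinone synthesis like Coq3.

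Of the 13 genes of the citric acid cycle 3 were higher and 3 lower, shares near those of all genes, with a median of 0.00. All 3 subunits of succinyl-CoA ligase were lower, Sucla2 by 0.86 (-0.86 ± 0.13), Suclg2 (-0.76 ± 0.09) and Suclg1 (-0.68 ± 0.07), while Idh3a, the catalytic subunit of isocitrate dehydrogenase, was higher (1.25 ± 0.12), as was Fh1, fumarase (0.86 ± 0.12). Of 19 genes of mitochondrial biogenesis 6 were higher and 7 lower, with a median of 0.03, and both shares were not far from those of all genes. The coactivators Ppargc1b (1.78 ± 0.29) and Ppargc1a (0.94 ± 0.24), and the factors Esrra (0.89 ± 0.14) and Nrf1 (0.66 ± 0.11), were higher. Among the 7 lower genes were Twnk, the helicase of mitochondrial DNA (-0.72 ± 0.13), Ssbp1, which binds its single strands (-0.46 ± 0.07), and Tfam, which packs it (-0.22 ± 0.08), while Polrmt, the mitochondrial RNA polymerase, was higher (0.54 ± 0.07).

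Of 10 genes of ATP and proton handling 5 were higher and 1 lower, with a median of 0.28. Ucp2 and Ucp3, uncoupling proteins, differed by 0.75 ± 0.23 and 0.81 ± 0.25, and Slc25a3, the phosphate carrier that supplies ATP synthase, by 0.51 ± 0.08. Vdac3, a pore of the outer membrane, was lower (-0.34 ± 0.05). Of 11 mitochondrially encoded transcripts on the array 1, ND1, was higher (0.40 ± 0.11) and none lower, with a median of -0.01.

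Summed levels of markers of other cells differed between the fasted groups, but the markers of a list did not always go one way. The summed level of 4 neutrophil markers was 2.40, 4.42 and 6.31 (lowest, median, highest) in AAKO and -1.82, 0.35 and 5.63 in CTRL fasted mice, with all 4 and 2 of 4 of them well above background on 5 or more arrays. That of 5 stellate cell markers was 6.22, 6.40 and 6.65 against 5.86, 5.94 and 6.18. The mean levels of Dcn (6.30 against 5.87 in CTRL) and Reln (2.30 against 1.80) were higher, those of Lrat (-1.83 against -1.50) and Des (-4.16 against -3.89) were lower, and Col1a1 was at -1.51 in both. The sum of 6 adipocyte markers was 2.28, 2.92 and 3.46 against 1.47, 1.93 and 3.17. Fabp4 was at 2.72 against 1.77, while Adipoq, the most specific of them, was at -5.87 against -4.82, and Ucp1 was not well above background on any array. The 6 hepatocyte markers summed to 11.29, 11.37 and 11.41 against 11.46, 11.53 and 11.58. Of these only Cps1 had a higher mean level in AAKO mice. Of 4 pancreas markers 1, Cela2a, was well above background on 5 or more arrays (2.11 against 0.11), and the means of the other 3 were lower in AAKO, with sums of 1.69, 2.19 and 2.62 against -0.58, 0.11 and 1.11. Sums follow their brightest markers, which were Dcn for stellate cells, Alb and Serpina1c for hepatocytes and Cela2a for pancreas. The stellate, hepatocyte and pancreas sums did not overlap between the genotypes, which does not describe every marker of a list. Their part in the differences of the oxidative phosphorylation genes was not tested.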

How the data were processed

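Liver RNA (200 ng per sample) was hybridised to 1-colour Agilent arrays, per the labels' protocols. Deposited intensity values (processed signal per spot) came from Feature Extraction 10.10.1.1 with design 074809 and probe positions on mm9, per the file headers, which also give flags for outlier spots and for spots well above background. The authors' deposited value table holds log2 values of 36898 probes, and its normalization is not given in the sources used here. It served as an alternative.

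Of 59305 non-control spots per array, outlier spots were left out (0.127% over all arrays), and none was saturated. Each array's 75th percentile was subtracted on the log2 scale, with repeated spots averaged. RefSeq accessions gave names to 32994 of the 56605 probes. A gene was its brightest probe, and was tested if well above background on 5 of 6 arrays in a group. The rule for named genes took, per comparison and complex, the called genes with the highest and lowest difference among those without overlap, 11 core subunits, the isoforms, and genes whose sign went against their complex. Other genes named here, and those named from the pathway lists, were chosen after their values were seen. limma 3.58.1 (R 4.3.3) fitted 6 group means and the wash batch in 12 contrasts (lmFit and eBayes, two-sided, Benjamini-Hochberg over 24093 genes). The fit was tested on simulated data. The members and lists were chosen with earlier results of these data known. Replicate numbers did not pair arrays (mean r = 0.005 over 90 pairs). Alternatives were the background correction, normalization, dim-probe filter, probe, batch, slide, replicate block and leaving out each array. The number of arrays limits the precision. One gene of the set is not reported here.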

Additional observations from a re-analysis of the deposited data

Results flagged for a closer look

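Single arrays lay far from the other 5 of their group in 20 of 318 groups of named genes and in 2 of 48 groups of array means, where chance gives about 1 in 20. The number after each gene is the gap to the nearest array as a share of the group's range. AAKO CL316243 array 6 was apart for Cox6a2 (0.954), the complex IV mean (0.938), Cox8b (0.835), Cox7a1 (0.832), Sdhd (0.776), Ndufa4 (0.718) and Cox7a2 (0.6254). For Cox6a1 (0.749) the array apart was CTRL fed array 1. CTRL CL316243 array 1 was apart for Ndufb10 (0.746), Atp5g1 (0.643) and Ndufa4 (0.641). For Cox6b1 (0.74), Ndufaf4 (0.643) and Ndufa9 (0.642) the array apart was CTRL fasted array 5. CTRL fasted array 2 was apart for Ndufa3 (0.735), Ndufaf3 (0.676) and Ndufs8 (0.656). For Atp5j (0.725) the array apart was AAKO CL316243 array 4. CTRL fed array 2 was apart for Ndufaf1 (0.713). For Cox8a (0.691) the array apart was CTRL fasted array 3. AAKO fed array 5 was apart for Ndufs5 (0.665) and the complex V mean (0.629).

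In the genes below the genotype difference in fasted mice differed from that in the reference groups. The test was the interaction in limma, in log2 units as AAKO minus CTRL. Against CL316243 these genes were Ndufaf3 (-1.46), Cox7a1 (-1.24), Cox6b2 (-1.12), Ndufs8 (-0.51), Ndufa3 (-0.47), Atp5k (-0.45), Uqcr11 (-0.43), Ndufv3 (-0.42), Atp5j (-0.38), Atp5c1-ps (-0.38), Ndufaf1 (-0.38), Sdhc (-0.35), Ndufaf5 (-0.33), Ndufa4 (-0.33), Atp5g1 (-0.33), Ndufb10 (-0.33), Ndufb5 (-0.28), Ndufb9 (-0.27), Uqcrq (-0.26), Ndufs5 (-0.25), Ndufs1 (-0.24), Ndufa9 (-0.23), Cox4i1 (-0.22), Uqcrh (-0.20) and Ndufaf6 (0.83). Against the fed groups they were Ndufaf3 (-1.31), Cox7b2 (-1.21), Cox6b2 (-1.14), Ndufv3 (-0.49), Ndufb10 (-0.42), Uqcr11 (-0.42), Ndufa3 (-0.41), Ndufs8 (-0.40), Atp5k (-0.38), Atp5j (-0.36), Sdhc (-0.36), Ndufa4 (-0.36), Ndufaf1 (-0.35), Uqcrq (-0.34), Ndufs5 (-0.27), Ndufb5 (-0.26), Ndufb9 (-0.24), Uqcrh (-0.22), Atp5sl (0.39), Atp5s (0.56) and Ndufaf6 (0.90). The value of Cox7a1 contains AAKO CL316243 array 6, which carries muscle transcripts, and was -0.75 without it. A call against CL316243 can also come from a genotype difference under the drug. Atp5g1 differed by -0.06 in fasted mice (not called) and by 0.27 with CL316243 (called). For Cox7a1 the values were -0.31 (not called) and 0.93 (called).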

How the results depend on the processing

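The count of called genes kept within 1.5 times of its main value under the other settings, except as follows. For CL316243 against fed in CTRL mice (29) it was 8 after normexp with quantile normalization, 5 after quantile normalization, 18 with no filter on dim probes, 17 with only the 2 groups fitted, 8 with slide in place of wash batch, and 1 within each wash batch. In AAKO mice (13) it was 7 after quantile normalization, 22 in the authors' value table, and 7 and 0 within wash batches 1 and 2. For the genotype difference with CL316243 (5) it was 10, 8 and 2 with normexp, quantile and only the groups fitted, and 0 and 1 within batches. For the interaction against CL316243 (47) it was 30, 29 and 26 with normexp, quantile and the authors' table, and 17 and 14 within batches; against fed (38) it was 20 and 4. For fasted against CL316243 in CTRL mice (20) it was 9 and 12, for fasted against fed in CTRL mice (47) 23 and 23, and for the genotype difference in fasted mice (52) 26 within batch 2. The interaction of CL316243 against fed (0) gave 1 after quantile normalization and 1 without wash batch. Fewer arrays enter a fit within a batch. The other causes were not tested, and the share of all genes called in each setting is not given beside its count. Leaving out 1 array gave 43 to 57 calls for genotype in fasted mice, 12 to 34 for CL316243 against fed in CTRL mice, 9 to 15 in AAKO mice, 57 to 65 and 16 to 24 for fasted against CL316243 in AAKO and CTRL mice, 65 to 75 and 42 to 59 against fed, 4 to 6 for genotype with CL316243, and 34 to 52, 29 to 40 and 0 to 1 for the interactions of the fast against CL316243, against fed and of CL316243 against fed. With the replicate block 49 genes were called for genotype in fasted mice, 61 for fasted against CL316243 in AAKO mice and 42 for the interaction; 5 of 36 arrays correlated best with their own number.

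Signs turned with another probe for Sdha (CL316243 against fed in CTRL 0.0543 and 0.29, fasted against CL316243 in AAKO 0.25, fasted against fed 0.59 in AAKO and 0.41 in CTRL), Atp5g1 (fasted against CL316243 0.34 in AAKO and 0.23 in CTRL, fasted against fed 0.40 and 0.24, interaction 0.11), Atp5a1 (0.0548) and Atp5g3 (1.07) for fasted against fed in AAKO, Ndufa3 (0.82), Ndufaf6 (0.0313) and Ndufs1 (0.25) for fasted against fed in CTRL, and Ndufaf6 (-0.30) and Ndufs5 (0.0077) for genotype in fasted mice. For fasted against fed in AAKO, Ndufv1 was 0.035, 0.026 and 0.0537 with normexp, quantile and the authors' table, and Cox8a was 0.0007 with quantile. Cox6a1 for fasted against CL316243 in AAKO was 0.0193 in the authors' table, and Ndufa4l2 for genotype in fasted mice was 0.0204 within wash batch 2. The cause was not tested. Dim probes such as Cox7b2 limit the precision of their differences.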
